A study of Mus musculus with 22 samples.

Results

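The epithelial fraction of the mouse lung was compared between postnatal day 7 (P7) and postnatal day 28 (P28). It comprised the cells positive for CD326, the surface name of the adhesion molecule EPCAM, and it was represented by 2 libraries at P7 and 2 at P28 of 22 libraries in the series. All 4 libraries came from lungs of wild-type C57BL6 mice, and the labels name no treatment. Endothelial (CD31-positive) and immune (CD45-positive) fractions of P7 and P28 lungs, with 2 libraries per age and cell type, served for comparison, together with 2 epithelial libraries each from embryonic day 16.5 (E16.5) and embryonic day 18.5 (E18.5). A gene was tested where 2 or more of the 22 libraries reached 1, which kept 12880 of 24344 named genes. The labels did not say how many animals each library held, so the p-values measure only the spread between libraries, which may be technical.

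The weeks after birth are the period in which the saccules of the mouse lung are divided into alveoli and the airways become able to handle inhaled material. Alveolar type 2 cells make and recycle surfactant, a lipid film with dedicated proteins, and renew the flat alveolar type 1 cells, which form the gas exchange surface with a basement membrane shared with the capillaries. Club cells of the airways secrete defence proteins and hold cytochrome P450 and other detoxifying enzymes, while ciliated cells move the mucus. A CD326 sort takes all of these cells, so each value below is a mean over their mixture, and fewer cells of a type cannot be told apart from less RNA per cell.

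Epcam was measured at 35.1 and 37.2 in the P7 libraries and at 34.5 and 25.6 in the P28 libraries, against at most 6.42 in any endothelial or immune library of these ages. Nkx2-1, the transcription factor that specifies lung epithelium, was measured at 182 and 275 at P7 and at 153 and 148 at P28, against at most 36.6 in those other fractions. Neither gene passed the test between the ages (log2 fold change -0.27, SE 0.51, limma adjusted p = 0.752 for Epcam, and -0.57, SE 0.78, adjusted p = 0.641 for Nkx2-1), and both estimates turned positive after rescaling (0.32 and 0.04). By these markers the fraction was epithelial at both ages. Of 18 genes of epithelial identity Krt7 and Cldn4, a keratin and a claudin, fell as deposited and not after rescaling, where Ehf, an epithelial transcription factor, was higher.

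The signal of other cells' markers in this fraction differed between the ages. The 16 endothelial markers reached a median of 9.38% and 8.05% of their own level in the endothelial fraction in the P7 epithelial libraries, and 0.633% and 0.493% in the P28 libraries. Their summed signal was 223 and 173 at P7 and 25.1 and 23.5 at P28, and none was listed at 0 at either age. The sum of 14 mesenchymal markers went from 201 and 174 to 41.3 and 39.3, and the sum of 4 mesothelial markers from 55.8 and 66.3 to 6.91 and 27.8. In contrast, the 12 immune markers summed to 11.7 and 14.8 at P7 and to 13.1 and 10.7 at P28, with overlapping ranges. Endothelial and mesenchymal markers thus move with many of the falls below, and their part in those falls was not tested.

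**Figure D1:**
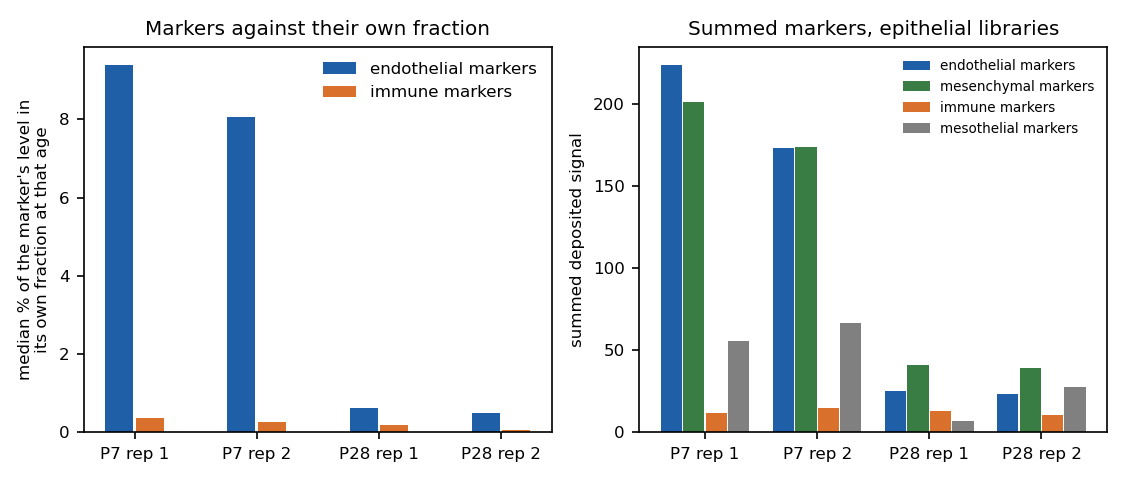
Markers of other cell types in the 4 epithelial libraries. Left, bars give the median over the 16 endothelial or 12 immune markers of each gene's level as a percentage of its mean in the fraction of that cell type at the same age; right, bars give the summed deposited signal of each marker list. Endothelial markers stood at 9.38% and 8.05% at P7 and below 1% at P28, while immune markers stayed low throughout.

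Each library of the deposited table had the same total, and surfactant, secretoglobin and lysozyme genes took 35.2% and 36.1% of that total in the P28 epithelial libraries against 18.9% and 17.2% at P7. The median gene was 0.35 lower at P28 on the log2 scale. Each comparison was also computed after rescaling by median-of-ratios size factors (0.841 and 1.00 at P7, 0.611 and 0.591 at P28), which left the median change at -0.0028. As deposited, 119 genes (0.924% of those tested) were higher and 2623 (20.4%) lower at P28. After rescaling, 499 (3.87%) were higher and 627 (4.87%) lower. All 119 deposited rises were among the rescaled rises, and all 627 rescaled falls were among the deposited falls, so these 119 and 627 genes kept their call on both scales (0.924% and 4.87%). The statements below give the deposited call first and say where it ended after rescaling. Counts of called list members are to be read against these shares of all genes tested. Fold changes are differences of log2(signal + 1) and so understate the change of genes with low values.

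The surfactant protein genes, which take much of each library, did not pass the test themselves. Sftpc, the surfactant protein made only by alveolar type 2 cells in the mature lung, was measured at 24020 and 13240 at P7 and at 32530 and 36650 at P28 (log2 fold change 0.95, SE 0.97, adjusted p = 0.513). Sftpd, a collectin that binds microbes, was measured at 122 and 124 at P7 and at 258 and 254 at P28 (1.05, SE 0.51, adjusted p = 0.151). For all 4 surfactant proteins both P28 libraries lay above both P7 libraries, and none passed on either scale. With 2 libraries per age such an order is weak evidence, and its share over all genes tested is not given here. The spread behind these tests was estimated over all 22 libraries. Fitted to the 8 epithelial libraries alone, the SE of Sftpd was 0.16 and its adjusted p 0.0135, whereas Sftpa1, Sftpb and Sftpc still did not pass (adjusted p = 0.0992, 0.146 and 0.137). Of 11 genes for surfactant processing and lamellar bodies, the storage organelles of surfactant, none passed on either scale. All 11 estimates were positive after rescaling, with a median of 0.72. In the fit to the 8 epithelial libraries Lamp3 alone was higher (91.1 and 95.7 at P7, 216.5 and 177.7 at P28, adjusted p = 0.0197). Abca3, the lamellar body lipid transporter, was measured at 35.2 and 36.4 at P7 and at 29.5 and 51.2 at P28.

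A desaturase and an elongase of fatty acids rose. Scd1, the desaturase that makes monounsaturated fatty acids (chromosome 19, 44394455 to 44407879, GRCm38), was measured at 299.9 and 461 at P7 and at 2262 and 3247 at P28. Its P28 libraries were both several times above either P7 library (log2 fold change 2.86, SE 0.73, adjusted p = 0.0149, and 3.48 after rescaling). Elovl1, which elongates saturated fatty acids, rose from 96.6 and 86.0 to 179.8 and 384 (1.52, SE 0.38, adjusted p = 0.0133). These 2 were the only members called among 19 genes of lipid synthesis as deposited, with a list median of -0.08. After rescaling 7 were higher and none lower, with a median of 0.48; the added members were Fasn, Acly, Acaca, Cept1 and Me1. Fasn, the fatty acid synthase, was measured at 86.2 and 160.2 at P7 and at 155 and 228 at P28, so that its libraries overlapped on the deposited scale. The Scd1 call did not survive leaving out any 1 of the 4 libraries on the deposited scale, and survived all 4 after rescaling.

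Of 18 genes of cholesterol synthesis, Msmo1, a sterol oxidase, rose alone as deposited (2.93 and 5.45 against 9.30 and 8.41; log2 fold change 0.97, SE 0.25, adjusted p = 0.0169). After rescaling Idi1 and Fdps joined it. The list median was 0.04 as deposited and 0.54 after rescaling.

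Other genes of alveolar type 2 cells divided into rises and 1 fall. Lyz2, the lysozyme of type 2 cells and macrophages (chromosome 10, 117277331 to 117282321), was measured at 3291 and 2992 at P7 and at 10030 and 14950 at P28 (log2 fold change 1.96, SE 0.53, adjusted p = 0.0183). Both P28 values exceed the means of the immune fraction at either age, 6786 at P7 and 4765 at P28. The call held with 1 of the 4 libraries left out in turn and ended without any of the other 3. The 12 macrophage markers summed to 25.2 and 34.6 at P7 and to 22.98 and 25.76 at P28, with no member called and C1qa listed at 0 in both P28 libraries. Il33, an alarmin cytokine, rose from 11.8 and 10.4 to 32.0 and 22.7 (1.21, SE 0.27, adjusted p = 0.00864). Dlk1, a Notch-family ligand of fetal tissues, was measured at 17.1 and 24.4 at P7 and was listed at 0 in both P28 libraries (adjusted p = 6.01e-05). After rescaling 6 of the 18 members were higher and 1, Dlk1, was lower; the added rises were Hc, Chil1, S100g and Fasn. Etv5, a factor that maintains type 2 cells, was measured at 38.8 and 45.8 at P7 and at 40.0 and 48.4 at P28.

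**Figure D2:**
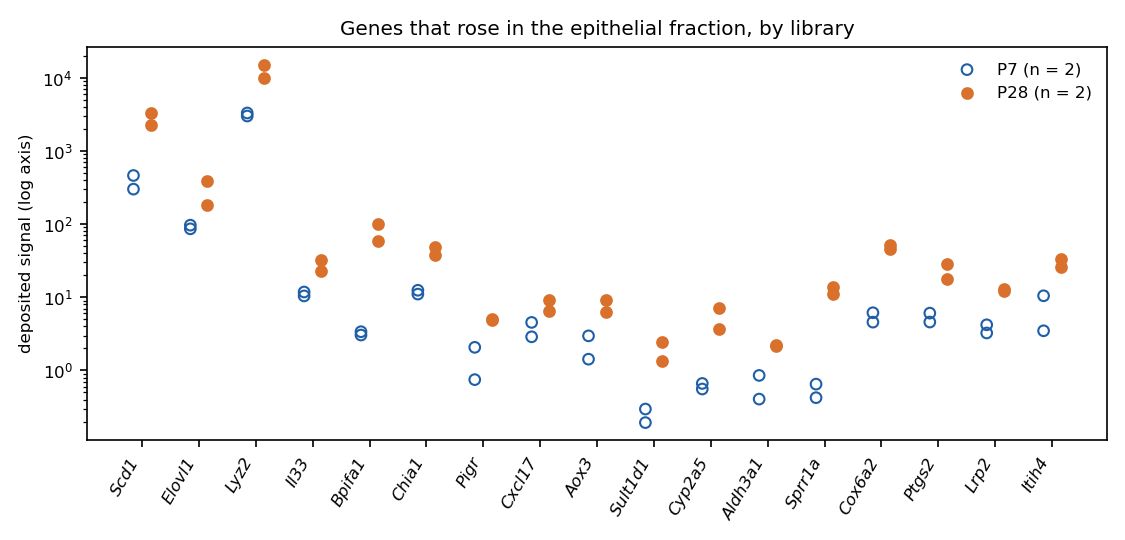
Deposited signal of 17 genes that rose from P7 to P28 in the epithelial fraction, on a log axis. Open circles are the 2 P7 libraries and filled circles the 2 P28 libraries. The ages do not overlap for any gene shown, which holds for all 746 genes called on both scales. Values run from Sult1d1 at 0.194 and 0.297 against 2.41 and 1.36 up to Lyz2 at 3291 and 2992 against 10030 and 14950.

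Calls in the alveolar type 1 list were falls only. As deposited, 14 of its 20 members fell and none rose, with a median of -1.48 against -0.35 over all genes tested. After rescaling 5 remained lower (Rtkn2, Clic5, Igfbp2, Spock2 and Col4a4) and the list median was -0.93. Akap5, a kinase-anchoring scaffold (chromosome 12, 76324891 to 76334153), was measured at 993 and 1406 at P7 and at 142 and 169 at P28 (log2 fold change -2.92, SE 0.74, adjusted p = 0.0143; 0.0667 after rescaling). Spock2, a proteoglycan, was measured at 93.8 and 147 at P7 and at 12.5 and 18.6 at P28 (-2.86, SE 0.52, adjusted p = 0.00243; 0.0115 after rescaling). Igfbp2, which binds insulin-like growth factors and marks mature type 1 cells, was measured at 14.9 and 7.63 at P7 and at 1.31 and 1.80 at P28 (-2.20, SE 0.34, adjusted p = 9.08e-04). The 2 age groups were apart for each of these genes, as they were for all 746 genes called on both scales.

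Common markers of type 1 cells were divided. Pdpn, podoplanin, fell as deposited and not after rescaling, and 3 others did not pass. Ager, the receptor RAGE, was measured at 813 and 389.6 at P7 and at 325 and 439.8 at P28, so that its groups overlapped (adjusted p = 0.636). Hopx, a cofactor of type 1 cells, had an adjusted p of 0.215 and Aqp5, their water channel, one of 0.366. The list was not uniformly free of endothelial expression. Cav1, the caveolin of both type 1 and endothelial cells, had a mean of 158 in the endothelial fraction at P7 and was measured at 33.4 and 41.1 in the epithelial P7 libraries. Akap5, Spock2, Igfbp2 and Rtkn2 by contrast had endothelial P7 means of 179, 19.6, 1.15 and 1.43, each below both epithelial P7 libraries.

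Basement membrane genes fell with the fewest exceptions. As deposited, 16 of 17 members fell and none rose; after rescaling 12 were lower, and the list medians were -1.63 and -1.23. Agrn, the heparan sulfate proteoglycan agrin, was measured at 50.9 and 54.0 at P7 and at 6.63 and 11.6 at P28 (log2 fold change -2.45, SE 0.26, adjusted p = 6.51e-05). Lama5, the laminin chain of alveolar and airway epithelium, was measured at 21.2 and 29.3 at P7 and at 4.08 and 6.74 at P28 (-2.05, SE 0.28, adjusted p = 4.04e-04). Lama3, a chain of the laminin under anchoring cells, fell by 1.65 (SE 0.31, adjusted p = 0.00308). Lamb3 was the member that did not pass (adjusted p = 0.0518). The largest fall of the list belonged to Nid1, which links laminin to collagen, from 9.88 and 13.7 to 0.844 and 0.405 (-2.97, SE 0.45, adjusted p = 7.84e-04); its endothelial P7 mean was 89.7, and the part of endothelial RNA in this fall was not tested. Lama3, Col4a3, Fras1 and Frem2 had endothelial P7 means between 0.518 and 5.87, each below both epithelial P7 libraries.

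Calls in the airway secretory list were rises only. As deposited 4 of 16 members rose and none fell, with a median of 0.78; after rescaling 6 were higher. Bpifa1, an antimicrobial and surface-active protein of the airway lining (chromosome 2, 154142880 to 154149219), was measured at 3.38 and 3.04 at P7 and at 100.1 and 58.1 at P28 (log2 fold change 4.20, SE 0.78, adjusted p = 0.00277). Aox3, an aldehyde oxidase, rose from 1.42 and 2.97 to 6.27 and 9.26 (1.48, SE 0.22, adjusted p = 8.72e-04). Sult1d1, a sulfotransferase, was measured at 0.194 and 0.297 at P7 and at 2.41 and 1.36 at P28, and Gsta3, a glutathione transferase, rose by 0.56 (adjusted p = 0.0433). Bpifa1, Aox3 and Sult1d1 were called with each of the 4 libraries left out in turn. The classical club cell product Scgb1a1, a secretoglobin, was measured at 8745 and 13730 at P7 and at 24750 and 16690 at P28 and did not pass (adjusted p = 0.47).

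Of 22 genes of xenobiotic metabolism, 5 rose and 1 fell as deposited (9 and 1 after rescaling). Cyp2a5, a cytochrome P450 that activates nitrosamines and coumarin, was measured at 0.557 and 0.664 at P7 and at 7.07 and 3.67 at P28 (log2 fold change 1.93, SE 0.22, adjusted p = 9.55e-05). The aldehyde dehydrogenase Aldh3a1 rose from 0.406 and 0.855 to 2.21 and 2.17 (0.98, SE 0.13). Cyp2b10 rose by 0.88 (adjusted p = 0.0456) and Gstt1 by 0.70 (adjusted p = 0.0421). The paralogous cytochrome and transferase genes share sequence, so reads may have been split among them. Fmo1 was the member that fell, from 3.97 and 3.07 to 0.823 and 0.61 (-1.39, SE 0.26, adjusted p = 0.00271), and its endothelial P7 mean was 32.4.

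Mucosal defence genes, a list that shares Bpifa1 and Lyz2 with those above, had 5 rises and no fall among 19 members (6 and 0 after rescaling) and a median of 0.90. Chia1, the acidic chitinase that digests inhaled chitin (chromosome 3, 106113229 to 106132120), was measured at 11.04 and 12.4 at P7 and at 49.2 and 37.2 at P28 (log2 fold change 1.78, SE 0.24, adjusted p = 3.8e-04). Pigr, the receptor that carries IgA across epithelium, rose from 0.749 and 2.07 to 5.09 and 4.85 (1.37, SE 0.22, adjusted p = 0.0014). Cxcl17, a mucosal chemokine, rose by 0.90 (SE 0.21, adjusted p = 0.0104). C3, the central complement component, was measured at 39.4 and 69.0 at P7 and at 42.1 and 73.6 at P28, so that its ages overlapped.

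The ciliated list had a share of falls near the 20.4% of all genes tested. Of 16 ciliated genes, Foxj1, the master factor of motile cilia, Mcidas, a factor that starts ciliated differentiation, and Tekt4, an axonemal tektin, fell as deposited. None of the 3 calls held after rescaling, where instead 2 other members, Dynlrb2 and Sntn, were higher. Foxj1 was measured at 29.0 and 39.6 at P7 and at 10.2 and 19.4 at P28 (log2 fold change -1.21, SE 0.36, adjusted p = 0.0276; 0.314 after rescaling). Only 3 of 14 basal and neuroendocrine genes reached the value filter, and none was called; Krt5, the basal cell keratin, was measured at 0.337 and 0.043 at P7 and at 2.60 and 0.157 at P28.

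**Figure D3:**
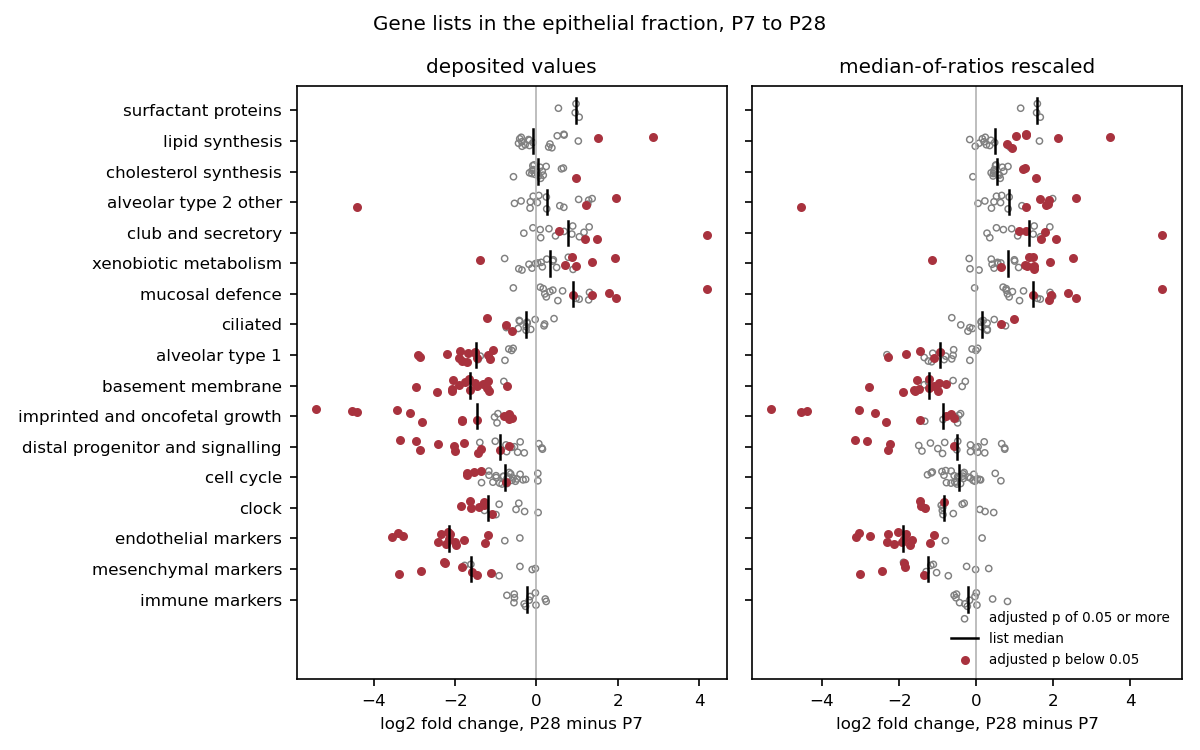
Log2 fold change from P7 to P28 of every tested member of 17 gene lists, on the deposited scale (left) and after median-of-ratios rescaling (right). Each circle is a gene, filled where its adjusted p was below 0.05, and the black bar is the list median; type 1, basement membrane, imprinted and endothelial lists lie to the left on both scales, with medians of -0.93, -1.23, -0.86 and -1.91 after rescaling.

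Most genes of the fetal growth list fell. Of 17 imprinted and oncofetal genes 14 fell and none rose as deposited, and 10 were lower after rescaling (medians -1.46 and -0.86). H19, an imprinted noncoding RNA (chromosome 7, 142575529 to 142578143), had epithelial means of 4456 at E16.5 and 975 at E18.5, was measured at 95.0 and 38.9 at P7 and at 0.895 and 0.0997 at P28 (log2 fold change -5.42, SE 0.97, adjusted p = 0.00233). Igf2, a fetal growth factor, was measured at 30.6 and 34.3 at P7 and at 2.81 and 1.499 at P28 (-3.44, SE 0.42, adjusted p = 1.95e-04). Mest, a putative hydrolase, went from 38.9 and 28.3 to 0.582 and 0.349 (-4.55, SE 0.52, adjusted p = 1.04e-04), and Peg3, a zinc finger protein, fell by 3.12 (SE 0.54, adjusted p = 0.00183).

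Imprinted genes were also high in the endothelial fraction at P7, with means of 726 for H19, 312 for Igf2, 367 for Mest and 316 for Peg3. They were lower there at P28 too, with means of 13.9, 13.0, 41.8 and 23.7. For none of these did the epithelial and endothelial changes differ past the threshold (limma adjusted p = 0.999, 0.535, 0.342 and 0.866). Of the 17 list members 2 changed more downward in epithelium than in endothelium. The part of endothelial RNA in the epithelial P7 values of these genes was not tested. Dlk1 (chromosome 12, 109452823 to 109463336) stood apart, with an endothelial P7 mean of 2.64 against 17.1 and 24.4 in the epithelial libraries. Meg3, a noncoding RNA of the same imprinted cluster, likewise had an endothelial P7 mean of 3.84 and fell from 23.3 and 29.6 to 2.44 and 3.42 (log2 fold change -2.81, SE 0.27, adjusted p = 3.69e-05).

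Distal progenitor and signalling genes showed 11 falls and no rise among 23 members (5 after rescaling). Sox9, the factor of distal tip progenitors (chromosome 11, 112782224 to 112787760), was measured at 15.4 and 18.6 at P7 and at 1.01 and 0.494 at P28 (log2 fold change -3.37, SE 0.48, adjusted p = 5.27e-04), with epithelial means of 95.0 at E16.5 and 41.8 at E18.5 and an endothelial P7 mean of 2.77. Mycn, which drives progenitor growth, fell from 7.75 and 6.11 to 0.533 and 0.431 (-2.41, SE 0.40, adjusted p = 0.0014). Ctgf, a matricellular target of YAP signalling, went from 159 and 168 to 23.2 and 20.1 (-2.87, SE 0.40, adjusted p = 4.59e-04), after epithelial means of 21.5 at E16.5 and 47.3 at E18.5, so P7 was the highest of the 4 ages. Sox11 fell by 2.97 (SE 0.27), with an endothelial P7 mean of 100.1. Shh, the epithelial morphogen that signals to mesenchyme, fell by 2.02 (SE 0.48, adjusted p = 0.0108; 0.0564 after rescaling).

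Among 21 transcription factors of lung epithelium 4 fell and none rose, a share near the 20.4% of all genes tested that fell. Besides Sox9 and Foxj1 these were Tead1, a DNA partner of YAP (log2 fold change -1.30, SE 0.25, adjusted p = 0.00351), and Elf5 (-0.83, SE 0.27, adjusted p = 0.0425), a factor of distal epithelium. Sox9 and Tead1 remained lower after rescaling. Of 30 cell cycle genes 5 fell as deposited, a share below the 20.4% of all genes tested, and none did so after rescaling. Mki67, the proliferation antigen, was measured at 45.0 and 59.7 at P7 and at 31.3 and 11.9 at P28 (-1.37, SE 0.47, adjusted p = 0.0481; 0.335 after rescaling), and the endothelial P7 mean was 139.

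**Figure D4:**
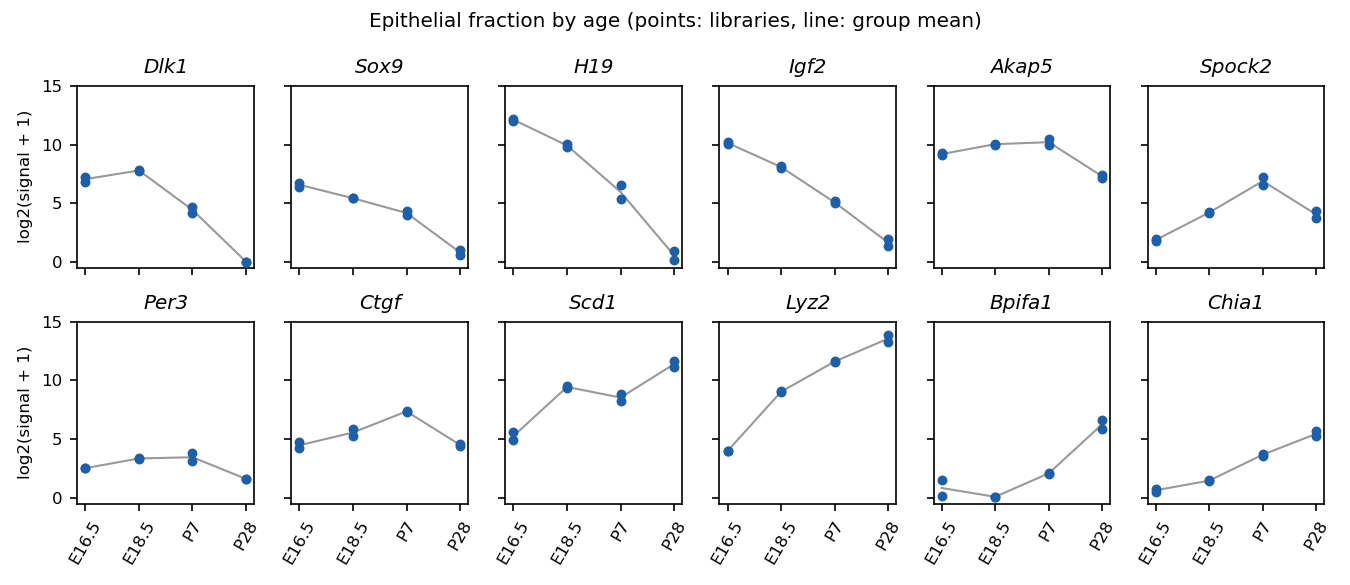
Log2(signal + 1) of 12 genes in the epithelial fraction at E16.5, E18.5, P7 and P28. Points are the 2 libraries of each age and the line joins their means; Dlk1, Sox9, H19 and Igf2 are lowest at P28, Spock2 and Ctgf are highest at P7, and Lyz2, Bpifa1 and Chia1 are highest at P28.

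Calls in the clock list were falls only, as in many other lists, since only 0.924% of all genes tested rose as deposited. The clock is a loop in which PER and CRY proteins repress their own activators, while DBP, TEF and HLF bind the D-box and the CLOCK complex binds the E-box of clock-controlled promoters. As deposited 7 of 14 members fell, against 20.4% of all genes tested. After rescaling 4 (Dbp, Per3, Nr1d2 and Tef) were lower, against 4.87%. The list medians were -1.19 and -0.85. The hour of collection is not in the labels, so age and time of day cannot be told apart. Upstream sequence of 2 of the falling genes is shown because it carries a D-box or an E-box (RefSeq promoters, GRCm38.p6, gene strand, 250 bases before the start site, motif in capitals). For Per3 (chr4:151044666-151044915, minus strand) the capitals mark the D-box TTATGTAA, and for Tef (chr15:81811164-81811413, plus strand) the E-box CACGTG.
Per3: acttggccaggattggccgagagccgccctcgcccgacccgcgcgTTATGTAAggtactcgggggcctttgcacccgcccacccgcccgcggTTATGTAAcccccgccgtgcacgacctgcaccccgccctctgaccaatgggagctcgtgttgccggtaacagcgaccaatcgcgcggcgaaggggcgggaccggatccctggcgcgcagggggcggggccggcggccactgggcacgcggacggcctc
Tef: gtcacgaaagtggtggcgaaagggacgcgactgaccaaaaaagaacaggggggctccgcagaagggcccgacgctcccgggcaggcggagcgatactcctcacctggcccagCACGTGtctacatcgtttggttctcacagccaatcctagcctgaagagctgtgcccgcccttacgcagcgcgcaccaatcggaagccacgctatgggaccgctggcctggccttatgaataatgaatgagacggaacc
The D-box letters, searched on both strands with no overlap with the E-box, occurred in 0.819% of 32851 such promoters and the E-box letters in 6.02%. Per3 held 2 D-box matches, beginning 205 and 158 bases before the start site, and was the 1 gene with a match among 12 clock genes found in the table; 5 of these held an E-box. A match describes these letters and is not a binding site.

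Per3, a period protein, was measured at 7.69 and 12.7 at P7 and at 2.00 and 2.06 at P28 (log2 fold change -1.85, SE 0.22, adjusted p = 1.43e-04). Dbp, the D-box activator, was measured at 2.46 and 4.54 at P7 and at 0.434 and 0.41 at P28 (-1.62, SE 0.24, adjusted p = 8e-04). Tef went from 7.38 and 7.76 to 2.79 and 2.26 (-1.29, SE 0.18, adjusted p = 4.59e-04). Nr1d2, a REV-ERB repressor, fell by 1.62 (SE 0.28), and Nr1d1 and Per2 fell by 1.42 and 1.30 as deposited without passing after rescaling (adjusted p = 0.252 and 0.13). Clock itself, the activator, was measured at 3.95 and 7.22 at P7 and at 4.16 and 4.27 at P28. Some clock genes were also lower at P28 in the other fractions. Nr1d2 went from a mean of 5.59 to 1.75 in endothelium and from 2.86 to 1.12 in immune cells. Nr1d1 went from 12.7 to 4.63 and from 7.88 to 2.58. The endothelial mean of Per2 was 1.99 and 1.94. As deposited, the epithelial change of 1 of the 14 members differed from the endothelial change, and of 0 from the immune change.

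Ion and water transport genes gave 5 falls and no rise among 17 members as deposited, where 20.4% of all genes tested fell. After rescaling they gave 3 falls and 1 rise, where 4.87% of all genes tested were lower. Aqp1, a water channel, was measured at 91.3 and 102 at P7 and at 5.13 and 9.75 at P28 (log2 fold change -3.59, SE 0.34, adjusted p = 2.83e-05), and its endothelial P7 mean was 284. Ano1, a chloride channel, went from 5.74 and 5.38 to 0.988 and 1.30 (-1.62, SE 0.27, adjusted p = 0.00151), with an endothelial P7 mean of 0.694. Scnn1b and Scnn1g, subunits of the epithelial sodium channel that clears airspace fluid, fell by 0.99 and 1.82 as deposited and did not pass after rescaling (adjusted p = 0.105 and 0.126), and Scnn1a did not pass on either scale.

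Metabolic and housekeeping lists had shares of falls near or below the 20.4% of all genes tested. As deposited only the glycolysis and hypoxia list also held a rise. Gapdh, a glycolytic enzyme, was measured at 491 and 700.1 at P7 and at 286 and 319.9 at P28 (log2 fold change -0.95, adjusted p = 0.0099; 0.44 after rescaling). Of 14 glycolysis and hypoxia genes Hk2, a hexokinase, rose by 0.96 (adjusted p = 0.0486), while Gapdh, Vegfa and Hif3a fell; Hif3a remained lower and Ldha, lactate dehydrogenase, was higher after rescaling. Hif3a, a hypoxia factor, had epithelial means of 139 at E16.5 and 166 at E18.5 before 1.87 and 4.66 at P7 and 0.894 and 0.402 at P28. Among 17 genes of oxidative phosphorylation Atp5b and Cs fell as deposited and not after rescaling, where Sdha and Sdhb, subunits of succinate dehydrogenase, were higher. Among 14 ribosomal protein genes Rpl4 fell as deposited and not after rescaling. Mt2, a metal-binding stress protein, was the 1 antioxidant gene called (110.7 and 160.6 against 18.2 and 25.7; -2.57, SE 0.68, adjusted p = 0.0176; 0.094 after rescaling), whereas 5 other antioxidant genes, among them Cat and Gclc, were higher after rescaling.

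Immune-related lists gave single calls or none as deposited, with shares of falls below the 20.4% of all genes tested. Ifit2, an interferon-induced protein, fell from 4.12 and 6.05 to 0.906 and 0.631 (log2 fold change -1.77, SE 0.20, adjusted p = 8.57e-05) and was the 1 gene called among 16 interferon response genes on either scale. None of 8 MHC class II genes passed as deposited, although 7 had a higher mean at P28, and H2-Eb1 alone was higher after rescaling. Of 13 MHC class I genes Tap1, a peptide transporter, fell by 0.58 as deposited and did not pass after rescaling (adjusted p = 0.762), where H2-T23 was higher. No gene of the glucocorticoid list or of the immediate early list was called on either scale. Fos, a gene induced by handling and stress, was measured at 8.45 and 7.36 at P7 and at 83.9 and 9.75 at P28, so 1 P28 library stood apart for it.

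Outside the lists, 29 rises and 136 falls were called on both scales with a mean of at least 10 at the higher age. The largest of these rises was Sprr1a, a cornified envelope precursor (chromosome 3, 92483952 to 92485895), measured at 0.424 and 0.65 at P7 and at 14.01 and 11.03 at P28 (log2 fold change 3.13, SE 0.32, adjusted p = 5.6e-05). Cox6a2, the muscle-type subunit of cytochrome c oxidase (chromosome 7, 128205435 to 128206387), rose from 6.14 and 4.57 to 52.0 and 45.3 (2.97, SE 0.36, adjusted p = 1.8e-04). Ptgs2, the inducible cyclooxygenase, rose from 4.58 and 6.07 to 28.4 and 17.8 (1.90, SE 0.28), and Lrp2, the endocytic receptor megalin, from 3.25 and 4.20 to 12.2 and 12.8 (1.52, SE 0.21). The other 8 were Hes2, Itih4, Mesp2, Urah, Calml3, Ang, Igip and Rnf186, with log2 fold changes between 1.36 and 2.08. Sprr1a, Cox6a2, Itih4, Ptgs2, Urah and Lrp2 kept their call with any 1 library left out, and Rnf186 lost it each time.

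Among the 136 falls the largest was that of Aplnr. This apelin receptor of endothelium was measured at 64.9 and 69.4 at P7 and at 0.91 and 1.17 at P28 (log2 fold change -5.06, SE 0.58, adjusted p = 1.15e-04), with a mean of 1110 in the endothelial fraction at P7. Sox18, Lyve1, Cd93, Mcam, Sox7, Pcdh1, Armcx4, Foxf1 and Chst2 followed with falls between 3.41 and 4.38, and each had an endothelial P7 mean above both epithelial P7 libraries, from 89.2 for Chst2 to 2913 for Cd93. A higher endothelial than epithelial mean at P7 was common, held by 67.4% of all genes tested and by 75.0% of the 627 genes lower on both scales. Postn, a matrix protein of mesenchymal cells, was measured at 16.4 and 14.2 at P7 and at 0.523 and 0.27 at P28, with an endothelial P7 mean of 40.0. Cldn6, a claudin of embryonic epithelia, was the exception among the 12, with 18.1 and 17.6 at P7, 0.468 and 0.931 at P28, an endothelial P7 mean of 1.45 and epithelial means of 489 at E16.5 and 70.1 at E18.5.

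The falls were also divided by libraries outside the comparison. Of the 12880 genes, 1191 had every fetal endothelial library above every fetal epithelial and immune library, and 1262 had every fetal epithelial library above the others; this division was chosen after the values were seen. Of the 627 genes lower on both scales 278 (44.3%) were in the first class and 67 (10.7%) in the second. On the rescaled values 23.3% of the fetal endothelial class were lower and 1.68% higher, and 5.31% of the fetal epithelial class were lower and 8.00% higher. In the fetal epithelial class the largest falls outside the lists under the same conditions were Npy2r, a neuropeptide Y receptor (9.51 and 19.8 against 0.872 and 0.739; log2 fold change -3.03, SE 0.33, adjusted p = 8.57e-05), Mmp11, a matrix protease (42.2 and 46.6 against 6.33 and 8.78; -2.42, SE 0.36), and Lamc1, the common laminin gamma chain (18.8 and 24.9 against 3.65 and 4.43; -2.17, SE 0.20). The endothelial P7 mean of Lamc1 was 28.9, above both epithelial P7 libraries, while those of Npy2r and Mmp11 were 1.01 and 10.4. F3, the tissue factor that starts coagulation, fell by 1.95 (SE 0.30), and Ndst1 and Hs2st1, which sulfate heparan sulfate, fell by 2.12 and 1.57. These names were chosen after their values were seen.

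One P7 library came from another sequencing run than the other 3 libraries. Leaving out an epithelial library leaves 1 in its group, so the spread comes from the remaining groups, which include other runs. Such a fit has no replicates at that age, and the list counts below are calls on the deposited values. Within the shared run, that is without P7 replicate 2, 393 of the 627 falls and 54 of the 119 rises were still called. Within it 6 of the 14 type 1 falls as deposited, 10 of the 16 basement membrane falls, 8 of the 14 imprinted falls, 11 of the 14 endothelial marker falls and 3 of the 4 club cell rises were called. With each of the 4 libraries left out in turn, 352 of the falls and 31 of the rises were called every time.

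The change of the epithelial fraction was then set against the change of the endothelial fraction from the same ages, through an interaction term. The endothelial and immune P7 libraries all came from other sequencing runs than the P28 libraries. Age and run thus cannot be told apart in those fractions, and the differences below carry this limit. As deposited, 21 genes (0.163%) changed more upward and 410 (3.18%) more downward in epithelium; after rescaling these counts were 46 and 231. The genes named next are the largest differences among those called in epithelium on both scales with a mean of at least 10 at the higher age, and larger differences exist outside this limit. Sox18 had endothelial values of 709.7 and 821 at P7 and of 648 and 735 at P28, while it fell in the epithelial fraction (difference of log2 changes -4.24, SE 0.71, adjusted p = 0.00475). Thbd, thrombomodulin, differed by -4.28 (SE 0.71, adjusted p = 0.00475), and Cldn5, S1pr1 and Cd93 by -4.22, -4.08 and -4.03; the call of Cd93 ended after rescaling (adjusted p = 0.0581). Upward, Sprr1a differed by 1.95 (SE 0.45, adjusted p = 0.0279), with endothelial libraries at 0 and 0.152 at P7 and at 0.962 and 2.02 at P28. Within the same limit Cox6a2, Calml3, Bpifa1 and Urah came next in size and did not pass as deposited (adjusted p = 0.0554, 0.156, 0.626 and 0.219). Below the limit of 10, Cyp2a5 differed by 1.64 (SE 0.31, adjusted p = 0.0103), Sult1d1 by 1.12 (adjusted p = 0.0126) and Aldh3a1 by 0.91 (adjusted p = 0.0175). These were chosen after their values were seen. The xenobiotic list as a whole had 3 members that differed upward and 4 downward. Downward were Fmo1 (-2.97, adjusted p = 6.97e-04) and Cyp2b10 (-1.95, adjusted p = 0.0187), among others. The endothelial mean of Cyp2b10 went from 0.15 at P7 to 7.42 at P28.

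Scd1, Lyz2 and other named rises were also higher at P28 in the endothelial libraries. Endothelial means went from 0.332 to 4.09 for Chia1, 1.19 to 7.3 for Ptgs2, 0.507 to 3.91 for Lrp2 and 1.5 to 10.1 for Itih4. Their differences between the fractions were -0.13, 0.02, -0.16 and -0.18, and none passed (adjusted p = 0.907, 0.999, 0.845 and 0.923). Sprr1a, Cyp2a5, Sult1d1 and Aldh3a1 differed upward, as given above. Scd1 was measured at 17.0 and 53.4 in the endothelial libraries at P7 and at 463 and 954 at P28, and its difference between the fractions was -1.55 (SE 1.03, adjusted p = 0.49). Lyz2 was measured there at 135 and 290 at P7 and at 1853 and 2908 at P28 (difference -1.58, SE 0.74, adjusted p = 0.3001). Sftpc took 0.327% and 0.553% of the endothelial totals at P7 and 1.78% and 2.69% at P28. The part of epithelial RNA in the endothelial values of these rising genes was not tested.

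Against the immune fraction, 105 genes (0.815%) changed more upward and 50 (0.388%) more downward in epithelium as deposited, and 479 and 99 after rescaling. At P7 and at P28 the fractions share preparations in the labels (replicate 1 of all 3 from one, replicate 2 from another). With the preparation as a random block over the 22 libraries, the counts were 217 and 214 here and 42 and 705 against endothelium. Under the same limit as above, Chia1 differed by 3.08 (SE 0.34, adjusted p = 2.96e-04). It was measured at 2.58 and 2.45 in the immune libraries at P7 and at 0.132 and 0.804 at P28. Scgb1a1 and Nkx2-1 were lower there too, from 2476 and 3421 to 108.8 and 620.2 and from 26.9 and 24.6 to 0.55 and 3.11. Krt19, a keratin of the epithelial list, was not (means of 51.3 and 51.0). The part of epithelial RNA in the immune values was not tested. Cox6a2 differed by 2.99 (SE 0.51, adjusted p = 0.0113). Scgb1a1, which was not called in epithelium, differed by 4.37 and did not pass (adjusted p = 0.0872). Bpifa1, Scd1 and Lyz2 had differences of 3.37, 2.94 and 2.80 with adjusted p of 0.14, 0.162 and 0.0842. Downward, Gimap1, a lymphocyte GTPase, differed by -3.52 (SE 0.66, adjusted p = 0.0167) and Il2rg, the common cytokine receptor chain, by -3.43 (SE 0.77, adjusted p = 0.0443). Both had endothelial P7 means above the epithelial ones, 142 and 141, and Gimap4 and Cxx1c did not pass (adjusted p = 0.0642 and 0.0571). Dlk1 also changed more downward than in the immune fraction (adjusted p = 0.0402), where it was listed at 0 in both P28 libraries as well.

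**Figure D5:**
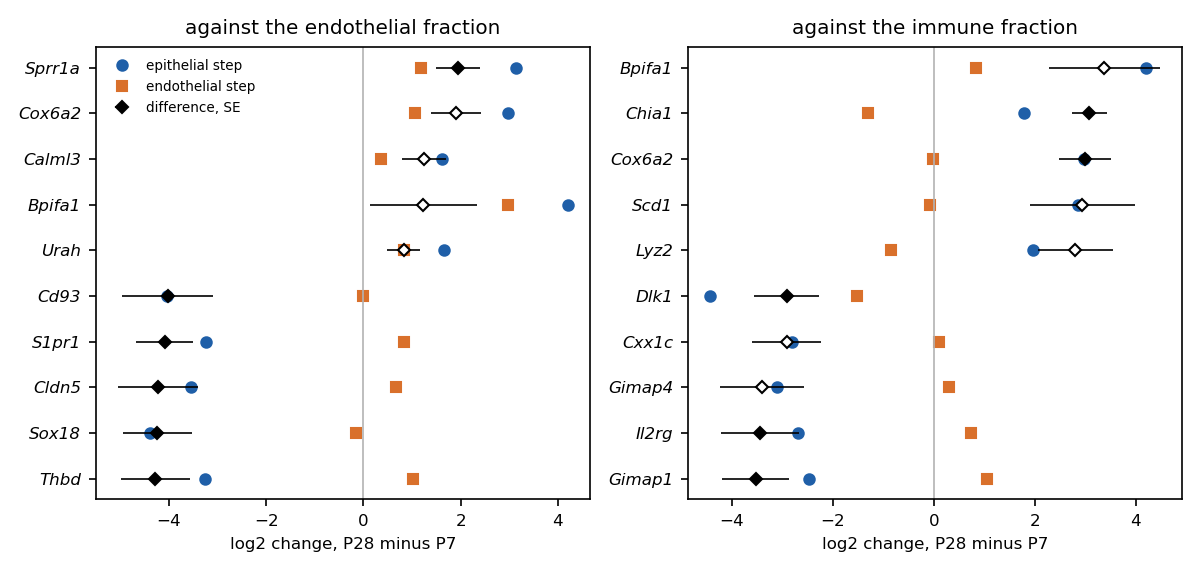
Differences between the epithelial change and the change of the endothelial (left) or immune fraction (right) from P7 to P28, for the 5 largest each way among genes called in epithelium on both scales with a mean of at least 10 at the higher age. Circles are the epithelial log2 change, squares the change in the other fraction and diamonds their difference with its SE as a bar, filled where the adjusted p was below 0.05; endothelial genes such as Sox18 (-4.24) lie at the bottom left and Chia1 (3.08) near the top right.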

How the data were processed

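Lung cells of wild-type mice were sorted into epithelial, endothelial and immune fractions and sequenced as paired-end RNA-seq from Nextera XT libraries, per the labels' protocols. The deposited table holds 1 signal value per gene and library, scaled by the authors so that every library has the same total. Its unit before scaling, the counting tool, annotation and strand setting are not given in the sources used here. TopHat2 2.0.9 and the mouse build GRCm38 are named in the submitters' processing notes. The absolute depth is unknown. Steps between low values were taken to be whole reads. On this reading depths relative to P28 replicate 1 were 1.10 and 0.717 for P7 and 1.39 for P28 replicate 2. Each came from the fullest bin, which held 5.01% to 7.24% of low genes. Not every value is such a step, as Cxx1c was listed at 3.1e-21 in epithelial P28 replicate 1.

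Date-like row names that spreadsheets make from gene symbols (27 rows, at most 0.0969% of a library) were left out. Genes with at least 1 in at least 2 libraries were fitted as log2(signal + 1) with limma 3.58.1 (R 4.3.3, trended prior) over 22 libraries in 11 groups, with Benjamini-Hochberg adjustment over 12880 genes and a threshold of 0.05. The rescaled fit divided values by median-of-ratios size factors from 12390 genes. Residual degrees of freedom were 11 and prior ones 3.89. On simulated data of this comparison over 12880 genes the fit recovered 23, 46, 47 and 50 of 50 genes changed by 1, 2, 3 and 4 on the log2 scale, with 6 false calls. How far these counts hold for the deposited values, where far more genes were called lower than higher, was not tested. Positions are from GENCODE on GRCm38.

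Named genes were Epcam and Nkx2-1, the 12 largest rises and falls outside the lists that passed on both scales with a mean of at least 10 at the higher age, the first gene and up to 5 called members of each list, and the 5 largest differences each way per interaction among epithelial genes that passed on both scales without overlap and with a mean of at least 10 at the higher age. Further list members were named after their values were seen, and some genes that the rule selects are not reported here. The members and the 34 lists were chosen with earlier results of these data known. Replicates correlated at 0.965 for P7 and 0.970 for P28 (log2 values across genes, which are not independent replicates). Alternatives covered the pseudocount, filters, scaling, the libraries fitted, a replicate block, a preparation block and leaving out each library.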

Additional observations from a re-analysis of the deposited data

Results flagged for a closer look

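These genes differed between the epithelial change from P7 to P28 and that of another fraction by the interaction term of limma, and no explanation of them was tested. Against the endothelial fraction the difference of log2 changes was -4.28 for Thbd, -4.24 for Sox18, -4.22 for Cldn5, -4.08 for S1pr1, -4.03 for Cd93 and 1.95 for Sprr1a. Against the immune fraction it was -3.52 for Gimap1, -3.43 for Il2rg, 3.08 for Chia1 and 2.99 for Cox6a2. For Dlk1 the value was -2.91 on the log2(signal + 1) scale, which is no fold since both P28 libraries are listed at 0.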

How the results depend on the processing

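With 2 libraries per group the calls depend on the scale and on single libraries. For the epithelial comparison (119 higher, 2623 lower) rescaling gave 499 and 627, the 4 epithelial libraries alone 19 and 496, and a total without the 10 top genes, chosen after seeing the data, 261 and 876. The rises numbered 75 with a pseudocount of 0.1 and 70 with a filter of at least 5. Leaving out 1 library gave 36 to 136 rises and 514 to 3282 falls; 65 and 514 remained without P7 replicate 2, 36 and 553 without P28 replicate 1, and 1534 falls without P28 replicate 2. Among genes highest in fetal epithelial libraries, a subset also chosen after seeing the data, 24 were higher and 296 lower, and among those highest in fetal endothelial libraries 4 and 514.

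Against the endothelial fraction (21 and 410) the upward count was 3 with a pseudocount of 0.1, 43 without a filter, 8 with a filter of at least 5, and 36 without the 10 top genes. Rescaling gave 46 and 231, the preparation block 42 and 705, and leaving out a library 8 to 26 and 132 to 460. Against the immune fraction (105 and 50) the pseudocount gave 229 and 140, the filter of at least 5 gave 69 and 33, rescaling 479 and 99, the preparation block 217 and 214, and leaving out a library 34 to 88 and 6 to 47. The upward count was 286 without the 10 top genes. The cause of these shifts was not tested.

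The replicate block gave 123 and 2675, 22 and 446, and 107 and 58 calls. Same-numbered P7 and P28 libraries had a correlation of deviations of 0.058, so the numbers do not pair them.

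Some genes that were not called changed sign. Rescaling gave 0.32 for Epcam, 0.037 for Nkx2-1, 0.037 for Ager, 0.26 for Ifit1, 0.30 for Sod1, 0.14 for Ndufs1, 0.040 for Slc2a1, 0.030 for Fkbp5, 0.23 for Rps2 and 0.0026 for Ptprc. Without the 10 top genes the values were 0.11 for Epcam, 0.078 for Ifit1, 0.087 for Sod1 and 0.015 for Rps2. The Bpifa1 difference from the endothelial fraction was -1.56 with a pseudocount of 0.1.

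Leaving out 1 library moved the log2 fold changes of Abca3 from -0.27 to 0.50, Etv5 from -0.076 to 0.19, Krt5 from -0.030 to 1.61, Ifit1 from -0.71 to 0.26, C3 from -0.30 to 0.49 and Ptprc from -0.060 to 0.0065.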
